A study of Saccharomyces cerevisiae with 8 samples.

Results

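Budding yeast cells that had been both heated and depleted of Ifh1 were set against untreated cells, and every coding gene measured was compared between them. The comparison used 4 of the 8 libraries of the series, 2 from each of these groups, and the 2 libraries of each single treatment served to place the combined state. All 8 libraries were poly-A RNA of Saccharomyces cerevisiae W303a taken from YPD cultures (2% dextrose, 30 °C) at an OD600 of 0.2 to 0.4. Untreated cells stayed at 30 °C, and heated cells spent 5 min at 39 °C. Depleted cells received 1 µM β-estradiol and 5 µM 5ph-IAA, an auxin analogue used to send degron-tagged proteins to the proteasome, for 30 min. The groups are called untreated, heat alone, 5ph-IAA alone and both treatments. The labels' protocols name these compounds but no tag, whereas the design text of the series speaks of anchor away, which moves a nuclear protein to the cytoplasm. Neither says whether the untreated cells and those with heat alone carried the tagged strain or received β-estradiol or a solvent, so 5ph-IAA, β-estradiol and the loss of Ifh1 cannot be told apart. The labels number the replicates as biological without naming separate cultures, so p-values measure the spread between these libraries.

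Estimated counts summed to 8917417 and 9068802 in the untreated libraries and to 10118860 and 9298953 with both treatments, against 19974567 to 21025464 with heat alone and 7717767 to 10007034 with 5ph-IAA alone. Levels are given in TPM (transcript units scaled to a fixed library total), which correct for coding length. Changes are log2 fold changes with their standard error from 1 edgeR quasi-likelihood fit to the counts of all 8 libraries, with p-values adjusted by Benjamini-Hochberg over 5734 tested genes and 0.05 as the threshold. Coordinates are those of the RefSeq S288C genome (build R64). The mating type in the labels was checked with its markers: STE2, the alpha-factor receptor of a cells, stood at 405 and 399 TPM in untreated cells, and STE3, the a-factor receptor of alpha cells, at 1.61 and 1.44 TPM. IFH1 mRNA (YLR223C, chromosome XII, 582233 to 585490) was at 24.1 and 22.6 TPM in untreated cells, 10.1 and 9.06 with heat alone, 26.6 and 24.0 with 5ph-IAA alone and 13.7 and 14.3 with both. Since the depletion acts on the protein, these mRNA levels do not check it.

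In growing yeast, much of transcription serves the making of ribosomes. Ribosomal protein genes depend on the DNA-bound factors Rap1 and Fhl1, which recruit the coactivator Ifh1. The assembly factors of the ribosome, known as ribosome biogenesis genes, are instead recognised by sequences called PAC and RRPE, where the repressors Tod6, Dot6 and Stb3 act. Heat stress activates Hsf1, which binds heat shock elements (HSE) upstream of chaperone genes, and the factors Msn2 and Msn4, which bind the stress response element (STRE) upstream of genes for general stress protection and storage sugars.

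The sequences below show these elements upstream of 5 genes that represent the gene groups described further on. Each is a stretch of 140 bases of the RefSeq S288C genome (build R64), written 5′ to 3′ along the gene's own strand, with the motif matches in capitals. None overlaps another coding sequence. BTN2 and TSL1 were among the 10 largest rises, NSR1 and NOG2 among the 10 largest falls, and RPL8A was among the ribosomal protein genes with the largest falls. The stretch of BTN2 (chrVII:772049-772188, plus strand) holds 2 overlapping matches to the HSE. That of TSL1 (chrXIII:70325-70464, plus strand) holds 3 STRE matches. Those of NSR1 (chrVII:807771-807910, minus strand) and NOG2 (chrXIV:723213-723352, minus strand) hold a PAC match each, and NOG2 also holds RRPE matches. That of RPL8A (chrVIII:36191-36330, minus strand) holds 1 match to the Rap1 site.
BTN2: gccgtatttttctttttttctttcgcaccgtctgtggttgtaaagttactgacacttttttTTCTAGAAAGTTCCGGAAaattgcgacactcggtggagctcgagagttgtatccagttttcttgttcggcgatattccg
TSL1: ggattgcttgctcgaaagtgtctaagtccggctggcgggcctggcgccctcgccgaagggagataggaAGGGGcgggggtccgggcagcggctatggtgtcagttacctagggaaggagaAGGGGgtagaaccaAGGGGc
NSR1: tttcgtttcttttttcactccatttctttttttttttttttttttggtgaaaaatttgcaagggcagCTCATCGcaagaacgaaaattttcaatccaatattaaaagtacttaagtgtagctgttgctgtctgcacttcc
NOG2: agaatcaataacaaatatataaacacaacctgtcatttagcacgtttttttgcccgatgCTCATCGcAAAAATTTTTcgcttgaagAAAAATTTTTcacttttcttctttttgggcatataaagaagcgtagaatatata
RPL8A: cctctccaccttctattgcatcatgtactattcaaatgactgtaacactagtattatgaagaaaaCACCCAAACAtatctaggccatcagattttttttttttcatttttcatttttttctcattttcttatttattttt

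The combined treatment changed what the transcriptome was made of. The 137 ribosomal protein genes held 39.7% and 40.6% of TPM in the untreated libraries and 10.3% in each library with both treatments, a mean share 3.89-fold lower. Heat alone left them at 19.3% and 19.9%, and 5ph-IAA alone at 17.1% and 17.3%. The 26 Hsf1 chaperones went from 0.811% ± 0.0152 of TPM to 9.09% ± 0.0675 (SD, n = 2), an 11.2-fold larger share, and the 44 Msn2/4 stress genes from 0.211% ± 0.00108 to 6.56% ± 0.0376, a 31.1-fold larger one. The share of 118 ribosome biogenesis genes fell from 2.21% ± 0.0508 to 0.708% ± 0.00561. In bulk RNA, fewer cells that express a gene and less of its RNA per cell cannot be told apart. In each of these lists the 2 libraries with both treatments lay outside the range of the untreated ones. An exact permutation test of 2 libraries against 2, two-sided, gave p = 0.333 for each, the smallest value that this design allows.

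**Figure D1:**
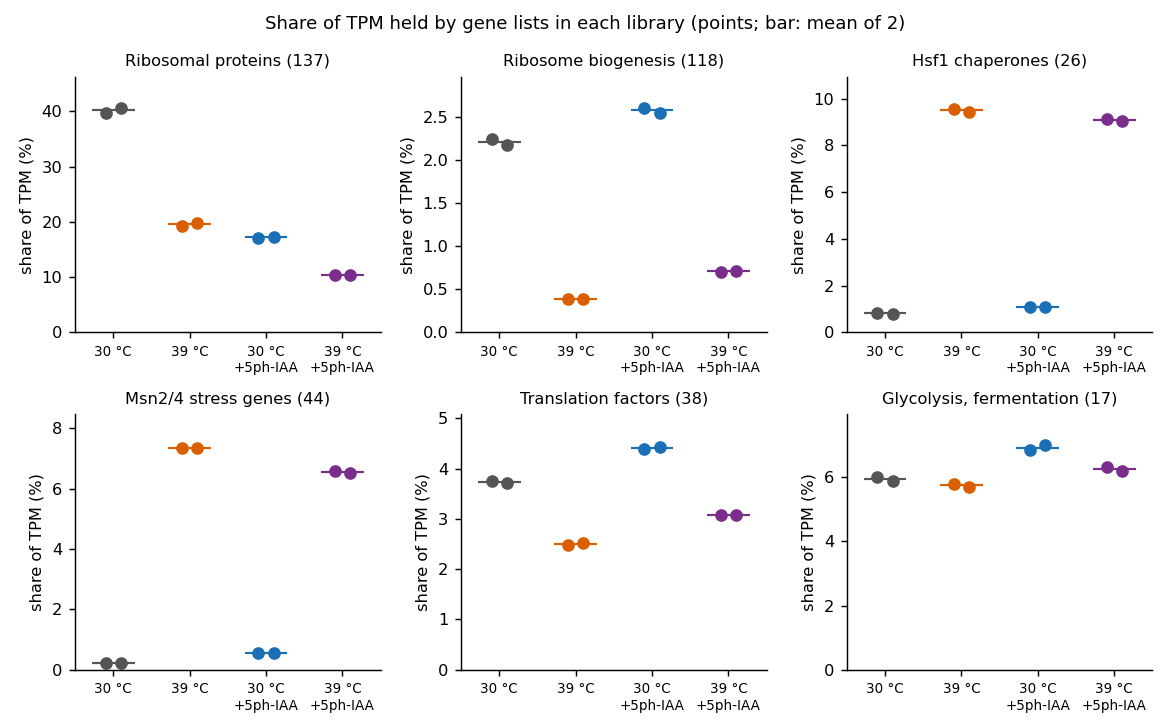
Share of TPM (%, vertical axis) held by 6 gene lists in each library (points) of the 4 groups (horizontal axis), with a bar at the mean of 2 libraries. The ribosomal protein share is lowest with both treatments, at 10.3%, while the shares of the Hsf1 and Msn2/4 lists with both treatments lie near those with heat alone.

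Among the 100 genes with the highest mean TPM, 81 were ribosomal protein genes in untreated cells and 15 with both treatments. Hsf1 chaperones made up 0 and 21 of these 100 genes, and Msn2/4 stress genes 0 and 11. Only 34 genes stood among the top 100 of both groups, and each group's list held 9 glycolytic genes. CCW12, a cell wall mannoprotein, headed the transcriptome at 18700 and 19370 TPM in untreated cells and at 19850 and 19740 with both treatments. TDH3, a glyceraldehyde-3-phosphate dehydrogenase, followed at 11340 and 11120 and 17580 and 17230 TPM. In untreated cells the ubiquitin fusion and ribosomal protein gene RPS31 was at 10100 and 10350 TPM and fell to 2454 and 2528. With both treatments the next most abundant mRNA by TPM was that of TMA10, a ribosome-associated protein, which rose from 16.9 and 19.4 to 10120 and 10090 TPM. Its target has 261 bases, not far above the fragment length, so its TPM and rank are less certain than those of longer genes. The number of genes that together hold 50% of TPM was 133 and 128 in untreated libraries and 220 and 226 with both treatments.

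Against untreated cells, 2322 genes were higher with both treatments (40.5% of those tested) and 2298 lower (40.1%), so that 80.6% of the transcriptome passed the test. Changes of at least 2-fold were called for 1009 genes upward (17.6%) and 959 downward (16.7%). At least 4-fold changes were called for 420 genes upward (7.32%) and 382 downward (6.66%). The 420 genes rose from a median of 9.15 to 109 TPM and took up 22.8% of TPM with both treatments. The 382 genes fell from a median of 155 to 29.9 TPM and from 39.2% to 8.88% of TPM, and 111 of them were ribosomal protein genes. The median log2 change over all tested genes was 0.42 on the log2(TPM + 1) scale, where 70.3% of calls were upward, while edgeR's scaling centred it at 0.01 and 50.3% of its calls were upward. All other changes are those of edgeR, relative to that centre.

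**Figure D2:**
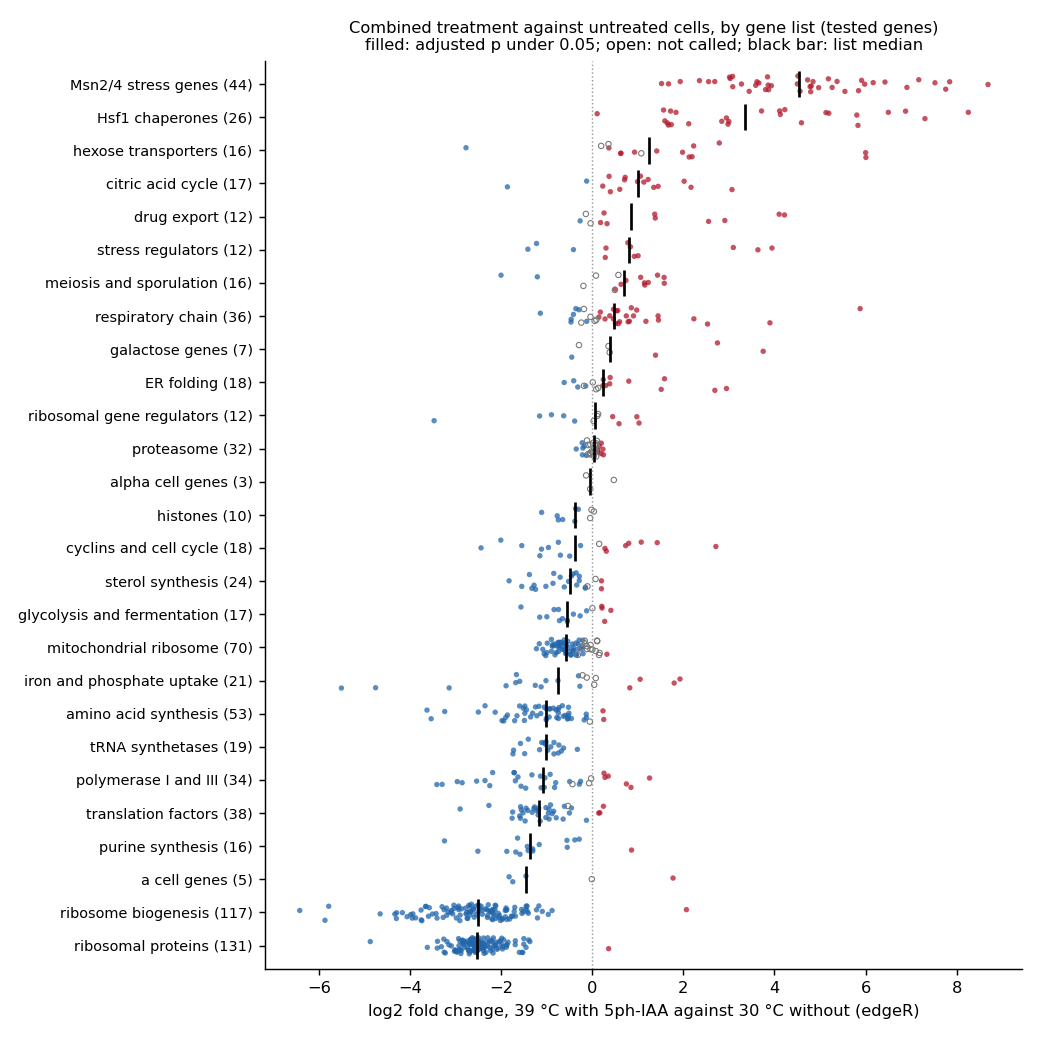
Log2 fold change of every tested gene (points, horizontal axis) with both treatments against untreated cells, in 27 gene lists ordered by their median (black bars), with the number tested in parentheses. Filled points passed an adjusted p of 0.05 and open ones did not; Msn2/4 stress genes and Hsf1 chaperones have the highest medians (4.54 and 3.36), ribosomal proteins and ribosome biogenesis the lowest (−2.53 and −2.50).

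The motifs were counted in the 400 bases that end 100 bases before each coding start, on both strands, for 5732 tested genes. STRE (AGGGG) matched in 29.3% of all these regions, in 67.4% of those upstream of the genes at least 4-fold higher and in 18.9% of those at least 4-fold lower. HSE (GAA, TTC and GAA, each separated by 2 bases of any kind) matched in 1.36% of all regions, 5.24% of the higher and 2.09% of the lower genes. PAC (CGATGAG) matched in 7.68% of all regions, 4.52% of the higher and 26.2% of the lower genes, and RRPE (AAAAATTTT) in 8.46%, 3.33% and 30.1%. The Rap1 site (CACCC and ACA with 2 bases of any kind between them) matched in 1.99% of all regions, 2.86% of the higher and 10.2% of the lower genes. By list, 41 of 44 Msn2/4 stress genes had an STRE, 14 of 26 Hsf1 chaperones an HSE, 76 of 117 ribosome biogenesis genes an RRPE and 55 a PAC, and 28 of 131 ribosomal protein genes a Rap1 site. A match is a run of letters and does not show that a factor was bound there.

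**Figure D3:**
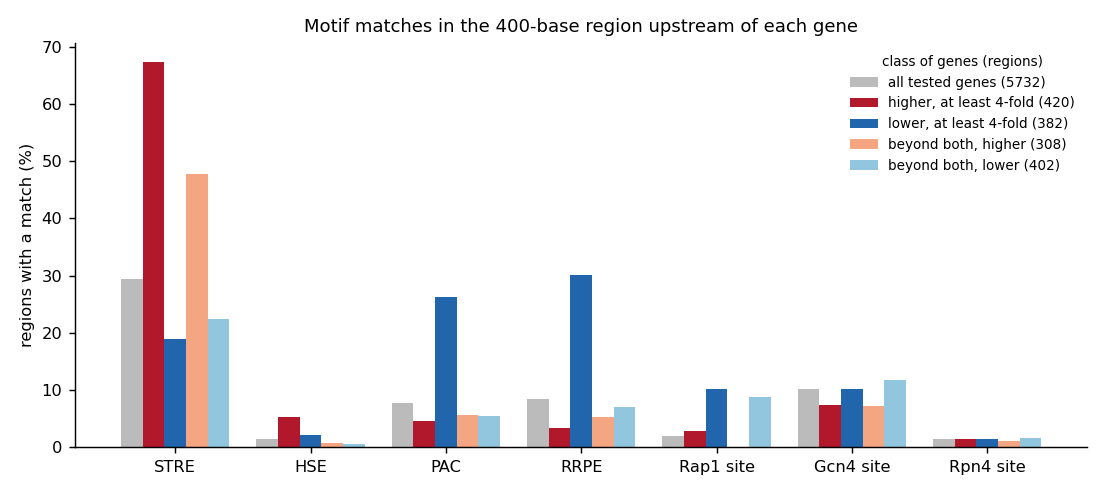
Share of upstream regions (%, vertical axis) with at least 1 match to each of 7 motifs (horizontal axis), for all tested genes and for 4 classes of changed genes, with the number of regions in the legend. STRE stands out upstream of the genes at least 4-fold higher (67.4%), PAC and RRPE upstream of those at least 4-fold lower (26.2% and 30.1%).

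Most ribosomal protein mRNAs were lower with both treatments than with either treatment alone. Of the 131 tested, 130 fell and 1 rose against untreated cells, beside 80.6% of all genes called, and their median log2 fold change was −2.53 against 0.01 for all tested genes. The medians against untreated cells were −1.22 with heat alone and −2.01 with 5ph-IAA alone. The latter depends on the scaling. In that comparison the median of all tested genes was −0.02 with edgeR, 0.38 with library totals and 0.61 on the log2(TPM + 1) scale. The other 6 genes of the list, RPL29, RPL39, RPL41A, RPL41B, RPS29A and RPS29B, are very short and could not be tested, since all 8 libraries list them at 0. Large and small subunit genes had nearly the same medians, −2.52 for 77 genes and −2.54 for 54. Many of these genes come in near-identical pairs among which reads are shared by estimation, so values of a single copy are less certain than those of the list.

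RPL8A (YHL033C, chromosome VIII, 35255 to 36025, 1 coding exon), a large subunit protein, stood at 777 and 774 TPM in untreated cells, 197 and 207 with heat alone, 179.9 and 175 with 5ph-IAA alone and 81.9 and 87.6 with both. The 4 groups did not overlap, and both libraries with the combined treatment were lowest. RPL8A fell by 3.62 ± 0.06 against untreated cells (edgeR, adjusted p = 3.24e-15), a 12.3-fold lower level. It was also lower than with heat alone (−1.55 ± 0.06, adjusted p = 2.67e-10) and than with 5ph-IAA alone (−0.84 ± 0.06, adjusted p = 3.52e-08). The largest fall of the list was that of RPL22B, the minor copy of a large subunit gene, from 624 and 613 to 32.8 and 23.4 TPM (−4.87 ± 0.11, adjusted p = 8.33e-14). RPS24B and RPL27B, which encode a small and a large subunit protein, had changes of −3.40 ± 0.08 and −3.40 ± 0.08, and those of RPS22A and RPS31 were −3.19 ± 0.06 and −2.46 ± 0.05. RPS28A, the small subunit gene with the smallest fall, went from 8058 and 8564 to 4368 and 4271 TPM (−1.37 ± 0.07, adjusted p = 2.74e-10).

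In 118 of the 131 genes the level with both treatments was called lower than in untreated cells, than with heat alone and than with 5ph-IAA alone. Across all tested genes 402 met these 3 conditions (7.01%), 3 comparisons that share the libraries with both treatments. The 13 genes that did not were named after their values were seen: RPL3, RPL4A, RPL4B, RPL9B, RPL15B, RPL18B, RPS8B, RPS9A, RPS22B, RPS27A, RPS28B, RPS30A and RPS30B. RPL3 (YOR063W, chromosome XV, 444686 to 445849), an early-assembling protein near the peptidyl transferase centre, was at 3625 and 3385 TPM in untreated cells, 877 and 877 with heat alone, 2225 and 2154 with 5ph-IAA alone and 1639 and 1682 with both. The libraries with both treatments thus lay above those with heat alone and below those with 5ph-IAA alone. RPL3 fell by 1.5 ± 0.04 against untreated cells (adjusted p = 1.31e-13) and was 0.63 ± 0.04 relative to heat alone (adjusted p = 1.06e-08). RPL4A and RPL4B, the copies that encode another large subunit core protein, were higher with both treatments than with heat alone as well (0.95 ± 0.04 and 0.75 ± 0.05), at 665 and 669 and 643 and 626 TPM. RPL15B (YMR121C, chromosome XIII, 509734 to 510348), the rarely used copy for protein L15, was the only one above its untreated level, at 73.3 and 53.9 TPM there and 105 and 113 with both (0.36 ± 0.11, adjusted p = 0.00783). That call was lost without untreated replicate 2 (0.18, adjusted p = 0.115).

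Ribosome biogenesis genes fell as far as ribosomal protein genes did, but the single treatments were spread differently. Of 117 tested genes 116 fell and 1 rose against untreated cells, beside 40.1% and 40.5% of all tested genes, with a median of −2.50. Heat alone gave a median of −3.67 and 5ph-IAA alone −0.42. The latter depends on the scaling as described above. In TPM the share of this list was 2.21% in untreated cells and 2.58% with 5ph-IAA alone. With both treatments 109 of the 117 stood higher than with heat alone and 2 lower (median 1.14), beside 22.5% and 22% of all tested genes called higher and lower, and 116 stood lower than with 5ph-IAA alone (median −2.03), beside 38.3% of all tested genes. On the log2(TPM + 1) scale, where the median of all genes was shifted by 0.28 in the comparison with heat alone and 89.7% of calls were upward against 50.6% here, the median of this list was 1.32. NOP10, a short gene, was not tested.

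**Figure D4:**
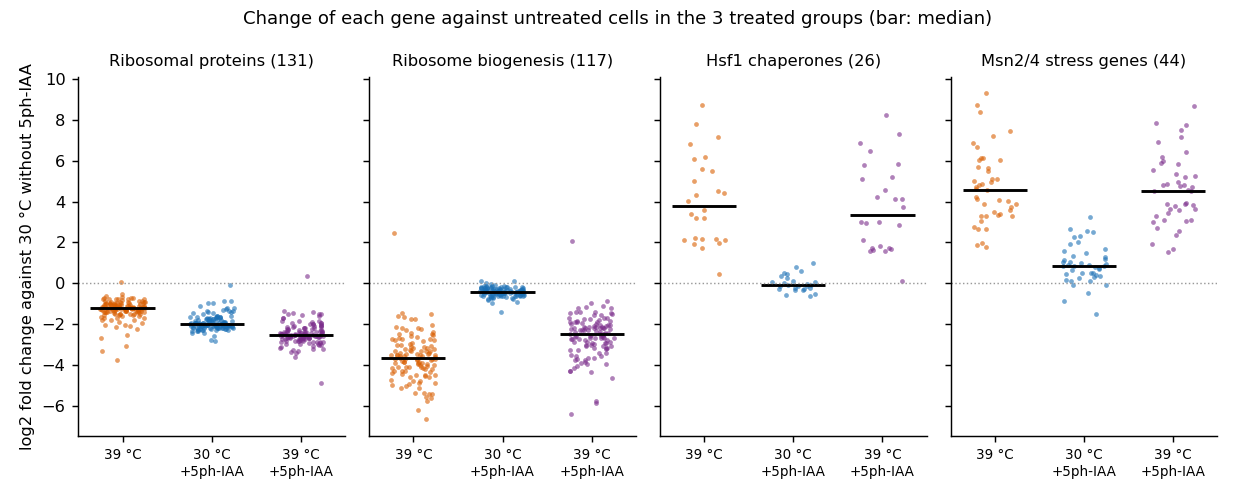
Log2 fold change against untreated cells (vertical axis) of each tested gene (points) in 4 gene lists, with heat alone, 5ph-IAA alone and both treatments (horizontal axis), and the median as a bar. The ribosomal protein median runs −1.22, −2.01 and −2.53 and that of ribosome biogenesis −3.67, −0.42 and −2.50, in that order of groups. Medians with 5ph-IAA alone depend on edgeR's scaling.

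NSR1 (YGR159C, chromosome VII, 806412 to 807656), a nucleolin-like protein of rRNA processing, was at 1017 and 999 TPM in untreated cells, 10.6 and 10.8 with heat alone, 816 and 855 with 5ph-IAA alone and 16 and 15.5 with both. The 2 heated groups lay far below the 2 unheated ones and did not overlap with each other. NSR1 fell by 6.42 ± 0.07 with both treatments (85.6-fold, adjusted p = 3.73e-17), the largest fall among called genes with a mean of at least 10 TPM in either group, apart from 2 Ty-type targets described at the end. Its difference from heat alone was 0.26 ± 0.09 (adjusted p = 0.0229), a call lost when single libraries of the heated groups were left out. NOG2 (YNR053C, chromosome XIV, 721120 to 723112, 2 coding exons), a GTPase that checks large subunit precursors before nuclear export, went from 171 and 165 to 3.26 and 4.49 TPM (−5.87 ± 0.09, adjusted p = 1.32e-15). REI1 and ALB1, which act on late large subunit precursors, changed by −5.78 ± 0.09 and −5.10 ± 0.13. HMT1, an arginine methyltransferase of RNA-binding proteins outside the lists, fell to 13.4 and 14.7 TPM from 322 and 331 (−4.96 ± 0.09). The smallest fall in the list was that of KRR1, a small subunit assembly factor, at −0.88 ± 0.06. YAR1 (YPL239W, chromosome XVI, 99484 to 100086), the chaperone of ribosomal protein Rps3, was the single member that rose, from 212 and 227 to 1242 and 1226 TPM (2.07 ± 0.06, adjusted p = 3.49e-13), and heat alone had brought it to 1337 and 1298. RCL1, a component of the small subunit processome, was the only member called below both single treatments (−2.98 ± 0.09 against untreated cells).

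The machinery that transcribes rRNA and tRNA and that translates fell by less. Of 34 genes of RNA polymerase I and III and their initiation factors, 25 fell and 6 rose (median −1.09). Of all tested genes 40.1% were called lower than untreated and 40.5% higher. RPA12 and RPA34, subunits of RNA polymerase I, went from 260.1 and 266 to 37.7 and 34.0 TPM (−3.29 ± 0.10) and from 322 and 310.3 to 54.4 and 54.2 TPM (−2.96 ± 0.06). RRN11, a subunit of the RNA polymerase I core factor, fell by 3.41 ± 0.18 to 1.58 and 2.56 TPM, although 5ph-IAA alone had raised it to 44.6 and 42.3 from 15 and 17.5. Among 38 translation factors 34 fell and 3 rose (median −1.16). NIP1, an eIF3 subunit, changed by −2.90 ± 0.06 and TIF4631, the scaffold eIF4G, by −2.27 ± 0.05. YEF3 (YLR249W, chromosome XII, 636780 to 639914), the fungal elongation factor 3, was at 1727 and 1721 TPM in untreated cells, 327 and 330.3 with heat alone, 1795 and 1764 with 5ph-IAA alone and 677 and 689 with both. The libraries with both treatments lay between those with heat alone and the unheated ones, at −1.76 ± 0.04 against untreated cells (adjusted p = 4.55e-14) and 0.76 ± 0.04 against heat alone (adjusted p = 2.44e-09). All 19 tRNA synthetase genes tested fell (median −1.01), from MES1 for methionine (−1.74 ± 0.04) and CDC60 for leucine (−1.73 ± 0.04) to a smallest change of −0.33, and 18 of them were higher than with heat alone, beside 22.5% of all tested genes called higher there.

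Chaperone genes rose almost as far with both treatments as with heat alone. All 26 Hsf1 chaperones were higher than in untreated cells, beside 40.5% of all tested genes, with a median of 3.36. On edgeR's scaling, the medians with heat alone and with 5ph-IAA alone were 3.81 and −0.10. SSA4 (YER103W, chromosome V, 364589 to 366517), the heat-inducible cytosolic Hsp70, was at 15.2 and 16 TPM in untreated cells, 7341 and 7054 with heat alone, 33.8 and 29.8 with 5ph-IAA alone and 6473 and 6304 with both. The heated libraries were all far above the unheated ones, and SSA4 rose by 8.25 ± 0.06, a 305-fold higher level (adjusted p = 4.41e-18). Another strong rise was that of HSP42 (YDR171W, chromosome IV, 806621 to 807748), whose product sequesters misfolded proteins in cytosolic deposits, from 50.8 and 46.5 to 7676 and 7655 TPM (6.88 ± 0.05), and BTN2 (YGR142W, chromosome VII, 772454 to 773686), a sorting factor for such deposits, rose from 32.5 and 29.0 to 6529 and 6473 TPM (7.30 ± 0.07). HSP78, the mitochondrial disaggregase, changed by 6.50 ± 0.05 and the cytosolic Hsp90 gene HSP82 by 5.81 ± 0.04. SSA2, an Hsp70 already abundant in untreated cells at 1501 and 1428 TPM, reached 7087 and 6947 (1.84 ± 0.03). The smallest change was that of SBA1, the p23 cochaperone of Hsp90 (0.11 ± 0.05, adjusted p = 0.0456), which missed the threshold in 9 of the alternative fits.

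Relative to heat alone, 24 of these 26 chaperone genes were lower with both treatments and none higher, by a median of −0.34 (−0.19 with library totals and −0.05 on the log2(TPM + 1) scale), beside 22% of all tested genes called lower. SSA4 differed by −0.46 ± 0.04 (adjusted p = 1.2e-06) and HSP42 by −0.29 ± 0.04 (adjusted p = 1.61e-05). In TPM, HSP42 was at 7712 and 7583 with heat alone and 7676 and 7655 with both, and its difference had the opposite sign and no call on the log2(TPM + 1) scale (0.00342, adjusted p = 0.953). With library totals, which change the scaling alone, it was −0.144 (adjusted p = 0.000673). Among 18 genes of protein folding in the endoplasmic reticulum, 10 rose against untreated cells and 4 fell (median 0.24), 77.8% called beside 80.6% of all tested genes. In TPM, 16 of the 18 lay above untreated cells without overlap and 1 below, beside 63% and 27.5% of all tested genes. KAR2, the Hsp70 of that compartment, went from 335 and 317 to 3406 and 3326 TPM (2.95 ± 0.04), ERO1, the oxidase that drives disulfide formation, from 97.1 and 88.8 to 806 and 803 (2.69 ± 0.04), and the disulfide isomerase MPD1 changed by 1.59 ± 0.06.

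The Msn2/4 stress genes had the highest median of all lists. All 44 rose with both treatments, beside 40.5% of all tested genes, with a median of 4.54. Heat alone gave a median of 4.59 and 5ph-IAA alone 0.86. TMA10 (YLR327C, chromosome XII, 783127 to 783387) had the largest rise among called genes with a mean of at least 10 TPM in either group, 8.69 ± 0.09 or 412-fold (adjusted p = 2.56e-17). RGI1, a gene needed for respiratory growth, rose from 12.7 and 11.9 to 3793 and 3791 TPM (7.84 ± 0.08), and the small heat shock protein gene HSP26 (YBR072W, chromosome II, 382030 to 382674) from 15.2 and 18.6 to 5010 and 4833 (7.76 ± 0.08). HSP12, which encodes a membrane-stabilising protein, reached 8223 and 7669 TPM from 186 and 225 (4.85 ± 0.09). The smallest rise was that of the glycerol phosphatase GPP2 (1.52 ± 0.05). DDR2, a further member, was listed at 0 in both untreated libraries and at 112 and 74.9 TPM with both treatments, so no fold change is given for it. Its levels with both treatments rest on low counts.

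Against heat alone the members of this list parted. With both treatments 20 were lower and 7 higher than with heat alone, beside 22% and 22.5% of all tested genes (median −0.11, but 0.04 with library totals and 0.19 on the log2(TPM + 1) scale). The largest shortfalls were those of HSP26, at 7991 and 8080 TPM with heat alone and 5010 and 4833 with both (−1.0 ± 0.05, adjusted p = 2.44e-09), of HSP12 (−0.85 ± 0.06) and of TMA10 (−0.62 ± 0.04). The 7 that were higher than with either single treatment, beside 5.37% of all tested genes, were named after their values were seen: TSL1, GSY2, GLC3, GPH1, GAC1, GLK1 and XBP1. XBP1 encodes a repressor, TSL1 is a subunit of trehalose synthase, GSY2 a glycogen synthase, GLC3 the branching enzyme, GPH1 glycogen phosphorylase, GAC1 a regulator of glycogen synthase and GLK1 a glucokinase. TSL1 (YML100W, chromosome XIII, 70624 to 73920) was at 6.04 and 5.13 TPM in untreated cells, 927 and 896 with heat alone, 52.6 and 46.8 with 5ph-IAA alone and 1379 and 1370 with both. The groups did not overlap, and TSL1 rose by 7.52 ± 0.07 (adjusted p = 1.81e-17), past heat alone by 0.30 ± 0.04 (adjusted p = 0.000111). GSY2 went from 13.4 and 12.5 TPM untreated through 49.0 and 44.7 with 5ph-IAA alone and 145 and 141 with heat alone to 246 and 258 with both. Its rise of 3.86 ± 0.06 exceeded that with heat alone by 0.53 ± 0.04 (adjusted p = 5.15e-07), and those of GLC3 and GPH1 did so by 0.40 ± 0.04 and 0.25 ± 0.04. Phosphoglucomutase PGM2, which feeds both storage sugars, rose by 6.91 ± 0.06, and its difference from heat alone was 0.03 ± 0.04 (adjusted p = 0.667).

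Most genes of sugar uptake and respiration rose along with them, beside 40.5% of all tested genes called higher than untreated and 40.1% lower. Among 16 tested hexose transporters 12 rose and 1 fell (median 1.25). HXT7 and HXT6, which encode nearly identical high-affinity transporters and share reads, were at 29.2 and 25.5 and at 3.32 and 5.58 TPM in untreated cells. With both treatments they reached 2324 and 2367 and 367 and 406 TPM (6.0 ± 0.05 and 6.01 ± 0.17), and each was above both single treatments (0.43 ± 0.04 and 1.80 ± 0.12 relative to heat alone). HXT5, a transporter of slow-growing cells, also rose (2.79 ± 0.10) but stayed at 51.5 and 51.2 TPM against 154 and 152 with heat alone (−1.87 ± 0.07, adjusted p = 1.34e-10). HXT1, the low-affinity transporter of cells rich in glucose, fell from 169 and 161 to 31.8 and 33.0 TPM (−2.77 ± 0.05), below both single treatments. Of 36 genes of the respiratory chain 24 rose and 7 fell (median 0.49). In TPM, 30 of the 36 lay above untreated cells without overlap and 1 below, beside 63% and 27.5% of all tested genes. The rises were led by the alternative cytochrome c gene CYC7 (5.88 ± 0.08), the external NADH dehydrogenase gene NDE2 (3.90 ± 0.25) and the cytochrome oxidase subunit gene COX5B (2.53 ± 0.08). The major cytochrome c gene CYC1 changed by −1.14 ± 0.06. Of 17 citric acid cycle genes 15 rose and 2 fell (median 0.99). Their largest rise was that of the citrate synthase gene CIT1, from 49.5 and 48.5 to 549.9 and 552 TPM (3.07 ± 0.05).

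Whether the combined change differed from the product of the single fold changes was tested with an interaction term, the combined log2 change minus the sum of those with heat alone and 5ph-IAA alone. It was positive for 1490 genes (26%) and negative for 1315 (22.9%). With library totals 908 and 2550 were called, and 685 and 2948 on the log2(TPM + 1) scale, so the balance of signs rests on the scaling. The median term of all tested genes was −0.003 here, −0.26 with library totals and −0.35 on the log2(TPM + 1) scale. On edgeR's scaling the term was positive for 129 of 131 ribosomal protein genes (median 0.67), so that their combined fall was smaller than the product of the single ones. It was also positive for 112 of 117 ribosome biogenesis genes (median 1.56) and all 19 tRNA synthetases (median 0.77). Among Msn2/4 stress genes 36 of 44 had a negative term and 4 a positive one (median −1.06). For RPL3 the interaction was 1.95 ± 0.05 (adjusted p = 3.16e-11) and for TSL1 −2.20 ± 0.08 (adjusted p = 4.25e-10).

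**Figure D5:**
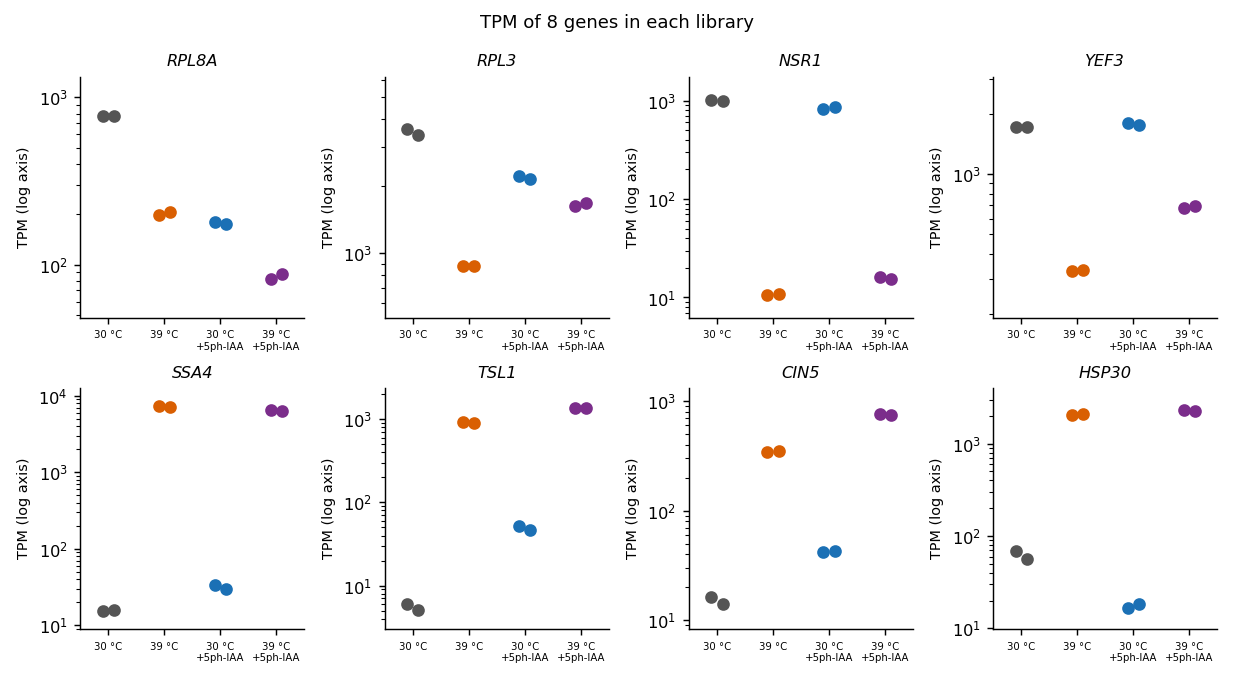
TPM (log axis) of 8 genes in each library (points) of the 4 groups (horizontal axis). RPL8A is lowest and TSL1 and CIN5 are highest with both treatments, RPL3 and YEF3 lie between heat alone and 5ph-IAA alone, and HSP30 is lowest with 5ph-IAA alone yet at 2325 and 2263 TPM with both.

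On edgeR's scaling, some genes were moved in opposite directions by the single treatments, either way round. The 6 with the largest such changes, by the smaller of the 2, were all raised by heat alone and lowered by 5ph-IAA alone, and they do not stand for the rest. Such a class depends on the scaling. With 5ph-IAA alone 1614 genes were called lower by edgeR, 503 with library totals and 276 with limma on the log2(TPM + 1) scale. HSP30 (YCR021C, chromosome III, 156109 to 157107), a membrane protein that restrains the plasma membrane proton pump, was at 68.9 and 56.5 TPM in untreated cells, 16.8 and 18.2 with 5ph-IAA alone, 2050 and 2082 with heat alone and 2325 and 2263 with both. The fall with 5ph-IAA alone (−2.48 ± 0.09) was not seen in heated cells, where HSP30 rose by 4.77 ± 0.07 against untreated cells and the interaction was 2.34 ± 0.11 (adjusted p = 1.79e-09). ROQ1, which redirects a ubiquitin ligase to misfolded proteins, went from 37.9 and 33.5 TPM to 18.9 and 20.1 with 5ph-IAA alone and to 1274 and 1363 with both (interaction 1.16 ± 0.18). MGA1 (YGR249W, chromosome VII, 988049 to 989419), a gene with an Hsf1-like DNA-binding domain, was at 21.4 and 15.4 TPM untreated, 4.72 and 4.16 with 5ph-IAA alone, 75.6 and 77.2 with heat alone and 112 and 119 with both. It was highest with both treatments, and its interaction of 3.01 ± 0.17 (adjusted p = 1.01e-08) was among the 6 most positive. On that scaling by edgeR, TMC1, a zinc finger protein, VHS1, a kinase, and RCN2, a calcineurin regulator, fell with 5ph-IAA alone. They ended above untreated levels with both treatments (1.6 ± 0.05, 1.38 ± 0.07 and 0.78 ± 0.06).

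The level with both treatments was called above untreated cells and above both single treatments for 308 genes (5.37%), and below all 3 for 402 (7.01%). With library totals 470 and 296 genes met these conditions, and 789 and 187 with limma on the log2(TPM + 1) scale, so both counts moved by more than 1.5 times in at least 1 of these alternatives. STRE matched upstream of 47.7% of the 308 and 22.4% of the 402, against 29.3% of all regions, and the Rap1 site upstream of 0% and 8.71%. Coding introns were present in 27.4% of the 402, which include the 118 ribosomal protein genes, against 5.44% of all tested genes. CIN5 (YOR028C, chromosome XV, 383533 to 384420), a bZIP factor of salt and drug tolerance, was at 16.2 and 14.2 TPM untreated, 41.6 and 42.5 with 5ph-IAA alone, 341 and 349 with heat alone and 764 and 741 with both. The 4 groups did not overlap, and CIN5 rose by 5.21 ± 0.07 against untreated cells, with differences of 0.83 ± 0.05 from heat alone (adjusted p = 9.96e-09) and of 4.38 ± 0.06 from 5ph-IAA alone (adjusted p = 9.56e-16). WHI5, a repressor of entry into the cell cycle, and LAS17, an activator of actin assembly, rose as well (2.71 ± 0.48 and 2.21 ± 0.25), from low levels of 0.810 and 0.778 and 3.03 and 2.24 TPM to 9.34 and 4.67 and 19.5 and 13.1. IMP21, named as the files give it, went from 8.21 and 8.12 to 50.3 and 30.4 TPM (1.89 ± 0.22). The replicates of these 3 genes with both treatments stood well apart from each other. Among the genes below both single treatments, PHM6, a phosphate-regulated gene, fell from 111 and 83.8 to 2.67 and 2.92 TPM (−5.51 ± 0.34), SPS4, a sporulation gene, to 4.55 and 4.45 from 11.7 and 15.2 (−2.0 ± 0.23) and the uncharacterised YOR338W to 11.7 and 8.81 from 41.4 and 45.9 (−2.50 ± 0.13). The difference of PHM6 from heat alone (−1.36 ± 0.47, adjusted p = 0.031) was lost with DESeq2 and without single libraries.

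Most biosynthetic genes fell, beside 40.1% of all tested genes called lower than untreated and 40.5% higher. Of 53 genes of amino acid synthesis 50 fell and 2 rose (median −1.01), and 17 of them were called below untreated cells and both single treatments, beside 7.01% of all tested genes, a class that shrank from 402 to 187 genes on the TPM scales. GLN1, glutamine synthetase, was at 1039 and 922 TPM untreated, 486 and 486 with 5ph-IAA alone, 119.8 and 118 with heat alone and 106 and 107 with both. It was lowest with both treatments (−3.63 ± 0.05, adjusted p = 7.91e-16). ILV5, a branched-chain amino acid enzyme that 5ph-IAA alone left at 744 and 745 TPM, fell from 528 and 524 to 62.1 and 59.5 (−3.54 ± 0.05), and SAM1, an S-adenosylmethionine synthetase, changed by −3.24 ± 0.06. The Gcn4 site (TGANTCA) matched upstream of 30 of these 53 genes against 10.1% of all genes, and GCN4, the gene of the factor itself, fell from 1644 and 1650 to 858 and 801 TPM (−1.41 ± 0.05). Of 16 purine synthesis genes 15 fell and 1 rose (median −1.36), with IMD4, an enzyme of GMP synthesis, at −3.24 ± 0.05 and ADE17 at −2.51 ± 0.06. Of 24 genes for sterols 20 fell and 2 rose (median −0.49, or −0.07 on the log2(TPM + 1) scale), whereas in TPM 12 lay below and 10 above untreated cells without overlap (27.5% and 63% of all tested genes), with the squalene epoxidase gene ERG1 at −1.82 ± 0.04. Of 17 genes of glycolysis and fermentation 12 fell and 4 rose (median −0.55), among them TDH2 (−1.56 ± 0.04), the phosphofructokinase subunit PFK2 (−1.15 ± 0.04) and the pyruvate kinase CDC19 (−1.0 ± 0.04) downward and TDH3 (0.21 ± 0.04) upward. Their share of TPM was 5.94% ± 0.0927 in untreated cells and 6.26% ± 0.0975 with both treatments (SD, n = 2), but as a share of estimated counts it was 1.91 percentage points lower.

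Proteasome genes had small changes. Of 32 proteasome genes 8 rose, 6 fell and 18 were not called, 43.8% called against 80.6% of all genes, with a median of 0.04 and a range from −0.35 (PRE1, a core subunit, at 0.07 on the log2(TPM + 1) scale) to 0.25 (RPN5, a lid subunit). In TPM, 31 of the 32 lay above untreated cells in both libraries with the combined treatment and none lay below, beside 63% of all tested genes above and 27.5% below without overlap. Their summed share was 0.587% ± 0.0101 in untreated cells and 0.785% ± 0.0084 with both (SD, n = 2), and their median on the log2(TPM + 1) scale was 0.46 against 0.42 for all genes. RPN4, the activator of these genes, rose from 36 and 31.3 to 554 and 566 TPM (3.64 ± 0.05), and its binding site (GGTGGCAAA) matched upstream of 21 of the 32. Of 70 genes for mitochondrial ribosomal proteins 55 fell and 1 rose, beside 40.1% of all tested genes called lower and 40.5% higher. Their median was −0.57, or −0.14 on the log2(TPM + 1) scale, a far smaller fall than that of their cytosolic counterparts, with MRPL3 at −1.23 ± 0.05. Of 10 histone genes 7 fell and none rose, 70% called beside 80.6% of all tested genes. Their median of −0.38 turned to 0.05 on the log2(TPM + 1) scale. HTB1, a histone H2B gene, changed by −1.11 ± 0.06. Among 18 cell cycle genes 10 fell and 7 rose (median −0.38, also 0.05 on the log2(TPM + 1) scale), and the G1 cyclin gene PCL1 fell from 43.1 and 41.8 to 10.4 and 10.6 TPM (−2.44 ± 0.10).

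Nutrient uptake, drug export and mating genes were also examined. The shares called were 81% for uptake, 83.3% for drug export, 57.1% for galactose, 80% for a-cell and 75% for meiosis and sporulation genes. Of all tested genes 80.6% were called, 40.5% higher and 40.1% lower. Of 21 genes of iron, zinc and phosphate uptake 13 fell and 4 rose (median −0.75). PHO84 (YML123C, chromosome XIII, 24037 to 25800), the high-affinity phosphate transporter, was at 665 and 638 TPM untreated, 966 and 972 with 5ph-IAA alone, 11.9 and 10.6 with heat alone and 28.9 and 36 with both. It fell by 4.75 ± 0.07 and lay above heat alone by 1.23 ± 0.09 (adjusted p = 6.81e-08). Of 12 drug export genes 9 rose and 1 fell (median 0.85), led by the polyamine transporter TPO4 (4.22 ± 0.07), the ABC transporter PDR15 (4.10 ± 0.06) and the sphingoid base exporter RSB1 (2.91 ± 0.07). Among 7 galactose genes 3 rose and 1 fell (median 0.38), with GCY1, an aldo-keto reductase, at 3.75 ± 0.06, and GAL7 at 10.2 and 11.1 TPM against 1.08 and 1.26 in untreated cells. Of 5 tested a-cell genes 3 fell and 1 rose (median −1.45). STE2 fell to 156 and 166 TPM (−1.74 ± 0.05), BAR1, the protease that degrades alpha factor, to 36.1 and 35.7 from 95.7 and 93.9 (−1.82 ± 0.06), and ASG7 rose (1.77 ± 0.18). The 3 alpha-cell genes tested were not called (median −0.04, range −0.13 to 0.47), and 10 of 16 meiosis and sporulation genes rose and 2 fell (median 0.69) at a summed 0.00796% ± 8.69e-06 of TPM in untreated cells and 0.0132% ± 0.000783 with both.

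The genes of the regulators moved in both directions. Among 12 regulators of ribosomal genes 4 rose, 5 fell and 3 were not called, 75% called beside 80.6% of all tested genes. TOD6 (YBL054W, chromosome II, 117589 to 119166), a repressor that binds PAC, was at 109 and 110.0 TPM untreated, 114 and 109 with 5ph-IAA alone, 5.15 and 4.70 with heat alone and 13.8 and 12.6 with both. It fell by 3.47 ± 0.07 (adjusted p = 1.66e-14) and lay above heat alone by 1.13 ± 0.09 (adjusted p = 3.84e-07). Its relative DOT6 had a log2 change of 0.59 ± 0.05, STB3, a repressor that binds RRPE, one of 0.98 ± 0.06 and SFP1, an activator of ribosomal genes, one of 1.03 ± 0.05. IFH1 fell by 1.16 ± 0.07 (adjusted p = 1.88e-09) and the kinase gene SCH9 fell by 0.63 ± 0.06. FHL1 had a log2 change of −0.39 ± 0.10 (adjusted p = 0.00329) that was lost without untreated replicate 1 and was 0.04 on the log2(TPM + 1) scale. CRF1 has been described as a corepressor that competes with Ifh1 for Fhl1, a role that was not tested in these cells. It was at 10 and 12 and 14.3 and 17.6 TPM (0.11 ± 0.14, adjusted p = 0.484), but was called higher by limma on the log2(TPM + 1) scale (0.50, adjusted p = 0.00626). Of 12 stress regulators 9 rose and 3 fell (median 0.81), beside 40.5% of all tested genes called higher and 40.1% lower. The log2 changes were 0.78 ± 0.05 for HSF1, 0.92 ± 0.06 for MSN2, 1.01 ± 0.06 for MSN4 and 0.84 ± 0.06 for RIM15, a kinase of quiescence. GIS1 and USV1, zinc finger factors of starvation and stress, rose further (3.10 ± 0.06 and 3.94 ± 0.08), and the oxidative stress factor SKN7 fell (−1.22 ± 0.06).

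The 12 genes with the most extreme interactions include several that both single treatments lowered. BSC1, an uncharacterised gene, was at 94.6 and 93.7 TPM in untreated cells and between 2.66 and 4.72 TPM in every treated library, so that the single falls did not add up. PRM7, a pheromone-regulated gene, was at 91.1 and 94.2 TPM untreated, 18.2 and 19.2 with heat alone, 5.27 and 5.21 with 5ph-IAA alone and 11.5 and 13.5 with both. TPO2, a polyamine transporter, was higher with both treatments (39.2 and 43.8 TPM) than with either alone (20.5 and 19.8 and 26.2 and 23.5), and below its untreated level of 109.6 and 93.3. At the other end, ARO10, a decarboxylase of amino acid breakdown, was at 50.6 and 50.4 TPM untreated, 672 and 652 with heat alone, 190.5 and 184 with 5ph-IAA alone and 267 and 255 with both. It rose with both treatments (1.95 ± 0.05), and its difference from heat alone was −1.63 ± 0.04 (adjusted p = 6.71e-11). Among the largest falls by the fit were also YDR034C-C and YML045W-A, targets of Ty elements whose reads are shared among many copies and whose replicates disagreed, at 7.86 and 14.3 and 9.51 and 37.3 TPM in untreated cells. No fold change is given for them.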

How the data were processed

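The authors deposited, for each of 8 libraries, estimated counts and TPM per coding target, which the submitters' processing notes credit to kallisto; neither its version nor the transcript set is given in the sources used here. The library kit that the labels' protocols name does not keep strand, so overlapping antisense genes share reads. After rounding to whole counts, edgeR 4.0.16 in R 4.3.3 was used (TMM scaling, filterByExpr, quasi-likelihood test, 1 term per group, all 8 libraries), which kept 5734 of 6034 targets. The standard error is the log2 fold change divided by the square root of F. Deposited TPM were used for levels and shares. The fit was checked on simulated counts with few changed genes, balanced up and down, which does not test the scaling.

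Targets are coding sequences of S288C, whereas the cells were W303a; 6031 of 6034 matched the R64 annotation, which gave coordinates and upstream sequence. Targets under 200 bases (137) lie near the fragment length and are poorly measured. Sampling noise is smallest in the heat alone libraries, which were the deepest. Replicates of a group differed by more than sampling noise (chi-square per degree of freedom 3.40 to 4.51). The labels give no batch.

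Named genes were the 10 largest rises and falls, the 10 most abundant genes of each group, the 6 most extreme genes of each further class, the 3 largest and the smallest change of each list, and both regulator lists. From these, and from genes called beyond both single treatments, examples were taken. The comparison, the members and the gene lists were chosen with earlier results of these data known. Alternatives were other scalings (library totals, RLE, TMM without ribosomal protein genes), no low count filter, DESeq2 1.42.0, limma 3.58.1 on log2(TPM + 1) and log2(TPM + 0.1), a replicate block, the 4 libraries alone, summed ribosomal protein copies and leaving out each library.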

Additional observations from a re-analysis of the deposited data

Results flagged for a closer look

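The combined change differed from the sum of the single log2 changes, by the interaction term of the edgeR fit, for 1490 genes upward and 1315 downward. Among genes with a mean of at least 10 TPM in any group, the most positive terms were those of BSC1 (5.02), YER160C (4.80), PRM7 (3.92), TPO2 (3.43), YGR027W-A (3.17) and MGA1 (3.01). Those of HSP30 (2.34), RPL3 (1.95) and ROQ1 (1.16) were also positive. The most negative were those of YHR054C (−3.93), YAL063C-A (−3.41), YGR035C (−3.11), RGI1 (−3.10), ARO10 (−2.88) and YKL104W-A (−2.80), and that of TSL1 was −2.20. YER160C and YGR027W-A are Ty-type targets and YKL104W-A overlaps GFA1, so their reads cannot be assigned with certainty. With DESeq2 the term of YHR054C was not called (adjusted p = 0.206). With 1 library left out it ran from −12.4 to −2.94, and that of YAL063C-A from −4.67 to −2.69, so their ranks are uncertain.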

How the results depend on the processing

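Library totals, and limma on TPM, which changes the unit and the test as well as the scaling, moved the counts most. Limma on log2(TPM + 0.1) and on log2(TPM + 1) called 1407 and 1411 genes lower with both treatments than untreated, against 2129 with library totals. Against heat alone, library totals and these 2 scales called 2315, 3189 and 3224 genes higher and 709, 367 and 371 lower. Library totals called 1409 genes higher than with 5ph-IAA alone. The interaction was positive for 908, 692 and 685 genes and negative for 2550, 2938 and 2948. Beyond both single treatments stood 470, 759 and 789 genes upward, and 187 downward on each TPM scale. DESeq2 called 2185 genes higher and 2231 lower than untreated.

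Signs turned for the medians of histones (0.0484 on both TPM scales), cell cycle genes (0.0486 and 0.0485), alpha-cell genes (0.0274 with library totals, 0.342 and 0.322) and Msn2/4 genes against heat alone (0.0404 with library totals, 0.188 on both TPM scales). They also turned for FHL1 (0.0434 and 0.0402), PRE1 (0.0682 and 0.068) and HSP42 against heat alone (0.00342). The difference in the glycolytic share was −1.91 points as a share of counts and −0.302 without its most abundant member. The cause was not tested.

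With 1 library left out, which assumes that a lone library varies like the other groups, 2174 to 2354 genes were higher and 2175 to 2282 lower than untreated. Against heat alone the ranges were 1022 to 1333 and 969 to 1308, against 5ph-IAA alone 2018 to 2205 and 2019 to 2214, for the interaction 1333 to 1395 and 1084 to 1225, and beyond both 210 to 321 and 332 to 401. Alpha-cell genes had medians from −0.307 to 0.272, regulators of ribosomal genes from −0.0325 to 0.088, and CRF1 changed by −0.0453 to 0.279.

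Replicate numbers were not taken to pair the libraries, since deviations of same-numbered libraries correlated at −0.017 to 0.106. With a replicate block 2317 genes were higher and 2300 lower than untreated, and the interaction was called for 1499 and 1310.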
